A study of Drosophila melanogaster with 3 samples.

Results

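The protein-coding genes that lie inside the pericentric heterochromatin of Drosophila melanogaster number 236 of the 13968 protein-coding genes on the 7 chromosome arms of the dm6 assembly. They were chosen by position alone, with the 5′ end of the gene beyond 22 Mb on 2L and on X, beyond 23 Mb on 3L, before 5.4 Mb on 2R or before 4.6 Mb on 3R. Of 247 such genes, 11 were left out (ribosomal protein genes, translation initiation factor genes, AGO3, Nipped-B and vtd). Arm 2L contributed 35 of them, 2R held 45, 3L held 30, 3R held 67 and X held 59.

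The measurement was ChIP-seq of Lhr, tagged with eGFP at its C-terminus, in whole embryos of both sexes collected 0 to 14 hours after egg laying. The embryos came from a single transgenic fly line that stably expressed the fusion, and chromatin sheared to 200 to 800 bp was recovered with an antibody to GFP. There were 3 biological replicate libraries of this 1 group, called against the same control alignment, and no second genotype, stage or treatment. Whole embryos mix all cell types, so a peak present in few cells cannot be told apart from a weak peak in many, and the labels give neither the promoter of the transgene nor the state of the endogenous Lhr gene. The authors' final peak list, filtered by the irreproducible discovery rate (IDR), which keeps peaks whose order is repeatable between libraries, was the main list. Each library was represented by its peaks of highest signal, in the same number as the IDR list holds, and the sequencing depth is unknown.

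Lhr (Lethal hybrid rescue) is a protein that, with its partner Hmr, causes the death of hybrid males between Drosophila melanogaster and its sister species. It binds the heterochromatin protein HP1a and is known to gather at pericentric heterochromatin and near centromeres. Pericentric heterochromatin is compact, rich in transposons and satellite repeats and poor in genes, yet the genes in it are transcribed. The classic examples, light and rolled, need their heterochromatic surroundings for normal expression and lose activity when a rearrangement moves them next to euchromatin.

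No histone mark or HP1a was measured here, so the label of these genes rests on position. The annotation showed the sequence around them to be repeat-rich: annotated transposons filled a median of 9.05% of the 10 kb to each side of the 5′ end, against 0% for the 13721 genes outside the borders. The median varied by arm, from 28.5% on 2R and 15.0% on 2L to 10.3% on 3L, 6.72% on 3R and 5.86% on X. Soft-masked sequence made up a median of 22.6% of the bases within 500 bp of the 5′ end of pericentric genes and 13.1% elsewhere. The genes were also longer, with a median of 3.6 kb against 2.16 kb.

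A gene was called bound when a peak summit lay within 500 bp of any of its annotated start sites. Of the 236 pericentric genes, 91 (38.6%) were bound in the IDR list, where 29.2% of all protein-coding genes were bound. Replicate 1 bound 88 of them (37.3%, against 26.6% of all genes), replicate 2 bound 82 (34.7%, against 31.2%) and replicate 3 bound 90 (38.1%, against 29.1%). The mean over libraries was 36.7% ± 1.76 (SD, n = 3). All 3 libraries bound 74 of the genes, where 22.4% of all genes were bound in all 3. Bound in no library were 138 of the 236 genes and 9031 of all 13968 protein-coding genes. The bound share was above that of genes outside the borders by 9.52 percentage points in the IDR list and by 11.0, 3.62 and 9.28 points in replicates 1 to 3. This difference averaged 7.95 ± 3.85 points (SD, n = 3 libraries), with p = 0.25 in a two-sided exact sign-flip permutation test over libraries, the smallest p that 3 libraries allow. The same p applies to each comparison below in which all 3 libraries point one way. Without 2R the difference was smaller: 60 of 191 pericentric genes (31.4%) were bound, 2.25 points above the genes outside. The library values of this difference were 3.47, -3.00 and 1.84. Those 191 genes include 21 near-identical copies on X, described below, none of which was bound. With 2R kept and all 27 such copies left out, 43.5% were bound. The difference was then 14.5 points, with 15.8, 8.11 and 14.2 in the libraries. Leaving out 2R and the copies together was not tested.

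The strongest promoter peak among these genes belonged to Clamp (2L 22165720 to 22169143, minus strand), which encodes a zinc finger protein that binds GA-rich DNA and takes part in dosage compensation. Its strongest promoter summit ranked 120 in the IDR list, with an authors' signal of 1162, and its promoter peak ranked 86, 198 and 126 in replicates 1 to 3. The summit nearest to the start site lay at -97 bp in the IDR list, where negative positions are upstream. It thus stood at rank 198 or better in each library, although the gene lies only 169 kb inside the border of 2L. MED21 (3L 25114924 to 25115946), a subunit of the Mediator complex that links transcription factors to RNA polymerase, ranked 331 in the IDR list and 240, 626 and 280 in the libraries. It lies 2120 kb inside the border of 3L, and its summit lay at -47 bp.

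The sequences under some of these summits are shown, first of genes chosen because they hold a searched word and then of genes that hold none. Words recognised by factors known from housekeeping promoters were searched on both strands within 100 bp of the 85 distinct summits that lay nearest to the 91 bound genes. They were GGTCACACT (M1BP), TATCGATA (the DRE, shared by DREF and BEAF-32) and the word TATCGA, which lies within the DRE and was added after the values had been seen. The first 6 sequences hold 1 or more of these words. Capitals mark GGTCACACT and TATCGA on whichever strand, so a DRE is not capitalised in full. Each sequence reaches up to 100 bases to each side of the summit, stops where an annotated exon begins, and is given 5′ to 3′ on the strand of its gene from the Release 6 genome (RefSeq).
Clamp (chr2L:22169144-22169340, minus strand): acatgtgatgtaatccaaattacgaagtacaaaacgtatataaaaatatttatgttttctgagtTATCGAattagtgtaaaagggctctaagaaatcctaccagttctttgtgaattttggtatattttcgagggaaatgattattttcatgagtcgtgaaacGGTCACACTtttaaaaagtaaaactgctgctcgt
tub (chr3R:4387545-4387741, plus strand): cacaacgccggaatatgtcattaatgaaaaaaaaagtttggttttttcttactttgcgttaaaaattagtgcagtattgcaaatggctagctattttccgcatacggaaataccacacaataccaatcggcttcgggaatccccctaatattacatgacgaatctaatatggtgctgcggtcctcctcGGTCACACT
CG9855 (chr3R:4397876-4398025, minus strand): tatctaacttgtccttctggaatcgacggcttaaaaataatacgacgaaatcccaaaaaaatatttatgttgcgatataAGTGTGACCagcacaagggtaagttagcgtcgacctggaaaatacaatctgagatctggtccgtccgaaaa
aux (chr3R:4220841-4220985, plus strand): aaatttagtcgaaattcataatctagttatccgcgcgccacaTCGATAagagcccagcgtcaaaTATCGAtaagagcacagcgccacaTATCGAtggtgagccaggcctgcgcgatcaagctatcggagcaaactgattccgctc
CG1074 (chr3R:4433896-4433964, plus strand): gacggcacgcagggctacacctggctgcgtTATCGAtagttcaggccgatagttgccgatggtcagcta
CG9795 (chr3R:4319555-4319682, plus strand): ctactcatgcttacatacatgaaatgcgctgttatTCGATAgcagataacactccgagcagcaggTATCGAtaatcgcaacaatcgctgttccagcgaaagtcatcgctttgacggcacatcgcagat
These 6 genes lie on 2L and 3R, between 166 and 388 kb inside the border. The window of aux holds a DRE and further copies of TATCGA. The gene encodes auxilin, the cofactor that strips clathrin from vesicles.

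The second group of sequences belongs to bound genes over 1 Mb inside the border of 3L, picked from those without any of these words.
CG40045 (chr3L:24028352-24028514, plus strand): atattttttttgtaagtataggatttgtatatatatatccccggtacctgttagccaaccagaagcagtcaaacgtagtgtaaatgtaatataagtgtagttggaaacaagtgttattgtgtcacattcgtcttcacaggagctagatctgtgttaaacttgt
MED21 (chr3L:25115947-25116093, minus strand): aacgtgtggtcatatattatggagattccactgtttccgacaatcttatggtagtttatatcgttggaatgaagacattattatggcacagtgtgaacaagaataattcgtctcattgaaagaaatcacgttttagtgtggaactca
Dbp80 (chr3L:27279149-27279315, plus strand): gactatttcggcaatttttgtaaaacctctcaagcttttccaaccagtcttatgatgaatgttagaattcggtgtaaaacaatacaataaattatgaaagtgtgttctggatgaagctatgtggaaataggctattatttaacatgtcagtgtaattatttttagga
l(3)80Fj (chr3L:28012600-28012768, minus strand): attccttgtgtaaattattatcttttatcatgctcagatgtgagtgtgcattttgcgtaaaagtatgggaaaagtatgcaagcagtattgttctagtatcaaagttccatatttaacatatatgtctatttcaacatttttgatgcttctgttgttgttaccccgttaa
CG40045 ranked 317, MED21 331, Dbp80 523 and l(3)80Fj 1154 in the IDR list, and all 4 were bound in every library. The GC content within 100 bp of the summits was 34.8% for pericentric genes and 36.8% for the 2865 promoter summits outside the borders.

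Over all 85 summits, the M1BP word was found at 4 (4.71%), those of Clamp, tub, CG9855 and srl, against 11.1% of promoter summits outside and 5.49% of all promoters, read as windows of the same length from 150 bases before to 50 after the 5′ end. The DRE was found at 8 (9.41%), against 10.9% outside and 8.21% of all promoters. TATCGA was found at 28 (32.9%), against 30.3% outside and 23.5% of all promoters, and it was present in 11.2% of windows centred 1000 bp to either side of the pericentric summits. The remaining words were the BEAF-32 site CGATA (50.6% against 47.6% outside and 39.3% of all promoters, overlapping the DRE), the E-box CAGCTG (7.06% against 13.2% and 14.1%), the GAGA factor word GAGAGAG (2.35% against 2.06% and 4.48%), the Zelda word CAGGTAG (0% against 0.489% and 1.10%), the TATA box TATAAAA (15.3% against 16.6% and 16.4%) and the CTCF word AGNNGGCGC (1.18% against 3.46% and 2.03%). In windows 1000 bp to either side of the pericentric summits, the M1BP word was present in 0%, the DRE in 1.76% and CGATA in 26.5%. The E-box (7.06%), GAGA (2.35%), TATA (15.3%) and CTCF (1.18%) words had the same shares there as at the summits, and the Zelda word 1.18%. In promoter windows the DRE was in 11.0% of bound and 19.3% of unbound pericentric genes, against 13.4% and 5.86% outside. A match describes the letters of a window and does not show that a factor was there. These shares were not tested, since summits are not replicates. By depth, 29 of the 63 bound genes within 1 Mb of the border held TATCGA and 3 of the 28 deeper ones, among them Haspin and Yeti on 2R, 1390 and 4050 kb inside. CG14464 and d4, of ranks 212 and 645 and within 1 Mb, held neither TATCGA nor the M1BP word. By arm, TATCGA was found at 7 of 9 bound genes on X, 13 of 24 on 3R, 9 of 31 on 2R, 2 of 11 on 2L and 1 of 16 on 3L. The counts by depth and arm are of genes, so a summit shared by a pair, as on X and 3R, counts for both. Depth and arm are not independent, since 12 of the 28 deeper genes lie on 2R and 10 on 3L.

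The genes are next taken by role, with short lists that name some genes of each role and not all, so a count describes the listed genes and not a class. On the list for transcription and chromatin, 9 of 11 genes were bound in the IDR list, where 29.2% of all protein-coding genes were, and 9, 7 and 9 in replicates 1 to 3. Parp1, which encodes the poly(ADP-ribose) polymerase, belongs to the same list by role but was missed under its older name. It was unbound in every list, with relaxed ranks of 5438, 7591 and 6247, and would make the count 9 of 12. IntS3, a subunit of the Integrator complex that cleaves nascent transcripts, ranked 399, and its library ranks were 173, 962 and 546. Dbp80, a DEAD-box RNA helicase of messenger RNA export, ranked 523, with library ranks of 444, 1058 and 359. Both stood at rank 1058 or better in every library. Haspin, a histone kinase of mitosis, ranked 1144, with library ranks of 1210, 2703 and 630. Nipped-A, the large scaffold subunit of the SAGA and Tip60 acetyltransferase complexes, ranked 1861, with library ranks of 1777, 2591 and 1488. Set1, a histone methyltransferase of active promoters, ranked 3318, with library ranks of 3663, 3936 and 2723. In these 3 genes replicate 2 gave the weakest rank and replicate 3 the strongest.

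Atf6, a transcription factor of the stress response of the endoplasmic reticulum, ranked 3744 and was bound in all 3 libraries at ranks 3205, 3258 and 3799. The homeobox gene scro ranked 4608 and was bound in replicates 1 and 3 at ranks 4914 and 4680, while its rank of 5398 in replicate 2 fell just past the peaks counted. l(2)41Ab ranked 3124 and was bound in replicates 1 and 3 at ranks 2006 and 3010, with a rank of 16416 in replicate 2. It is the least certain of the 9, because its summit lay at -486 bp and only 34% of the 32-base words around its 5′ end occur once in the assembly. The unbound members of the group were su(f), which encodes a factor of messenger RNA 3′ end formation, with relaxed ranks of 8110, 14527 and 8331, and Scp1, which encodes a calcium-binding protein, so that its place on this list is doubtful, and had a relaxed peak only in replicate 2, at rank 18476. A relaxed peak is one from a library's full list of 22598, 30000 or 18934 peaks, which also holds background.

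On the signalling list 4 of 5 genes were bound, also in each library, against 29.2% of all genes in the IDR list. The list leaves out other signalling genes among the members, such as the unbound neuropeptide gene Dsk. p120ctn, a catenin that binds cadherins, ranked 358 in the IDR list and 281, 310 and 530 in the libraries. cta, the G protein alpha subunit through which folded gastrulation acts when mesoderm cells constrict, ranked 3223, with library ranks of 2250, 4412 and 3453. Its ligand gene fog was not bound and had relaxed ranks of 16375 and 16118 in replicates 1 and 2 and none in replicate 3. Gprk1, a kinase that desensitises G protein-coupled receptors, ranked 2455, with library ranks of 2112, 3212 and 1483. conu ranked 3407, with library ranks of 3761, 3084 and 3204. The fifth gene, rl, is the rolled locus and encodes the MAP kinase ERK. It was bound in no list, and its relaxed ranks of 6513, 8369 and 6557 all lay past the peaks counted.

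light (lt), the other classic heterochromatic gene, was bound in every list. It encodes a subunit of the HOPS complex that delivers vesicles to lysosomes and lies 925 kb inside the border of 2L. It ranked 1083 in the IDR list and 811, 2609 and 922 in the libraries. aux ranked 627, with library ranks of 566, 489 and 724. The other listed genes of membrane traffic and mitochondrial import, Snap25 and Tim23, were not in the IDR list, whereas the unlisted Tim17b and Vps11 were, at ranks 2155 and 3835. Snap25, a synaptic SNARE protein gene, was bound in replicate 3 alone, at rank 4707, with relaxed ranks of 9836 and 8448 in replicates 1 and 2. Tim23, a subunit of the mitochondrial import pore, was bound in no library and had relaxed ranks of 13703, 19555 and 5650.

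On the metabolic list 2 of 6 genes were bound in the IDR list and 3, 2 and 2 in the libraries, near the 29.2% of all genes. Unlisted metabolic genes such as UQCR-11 and BckdhB were bound, at ranks 1639 and 3408. The 2 were ND-AGGG and ND-MLRQ, both subunits of respiratory complex I, at ranks 2198 and 3891. nvd and spok, enzymes of ecdysone synthesis that act in the prothoracic gland, were bound in no library. Each had a relaxed peak in 1 library, at rank 12169 in replicate 2 for nvd and at rank 14076 in replicate 3 for spok. Gfat1, an enzyme of hexosamine synthesis, had relaxed ranks of 10629 and 9956 in replicates 1 and 3, and only 27.7% of the 32-base words around its 5′ end were unique. Marf1, whose place on this list is doubtful, was bound in replicate 1 alone, at rank 3610, with relaxed ranks of 10961 and 6037 in replicates 2 and 3.

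None of the 7 listed genes of transport and excitability was bound in any list, against 29.2% of all genes in the IDR list. The count rests on which genes were listed, since MFS17, a transporter gene outside it, was bound in every list at rank 1330. They were the ionotropic receptors Ir40a and Ir41a, the channel gene Pzl, the cell-surface gene dpr21, stnA and stnB, which act in synaptic vesicle recycling and share 1 start site, and the metal transporter gene uex. Pzl and uex had no relaxed peak in any library. The window of uex held no 32-base word that is unique in the assembly, whereas that of Pzl was fully unique. The relaxed peaks that the others had ranked between 9120 and 20424. Of the 3 cytoskeletal and adhesion genes, alpha-Cat, the catenin that ties cadherins to actin, ranked 1461 with library ranks of 1901, 1873 and 1098, and Myo81F is described below with the long genes. Over the role lists together, 19 of 36 genes (52.8%) were bound, against 72 of the other 200 (36%). Those 200 include 27 near-identical copies, described below, none of which was bound, so the contrast is smaller without them. Many genes of the remainder have no assigned role, and 119 of the 236 carry a CG number as their symbol.

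**Figure D1:**
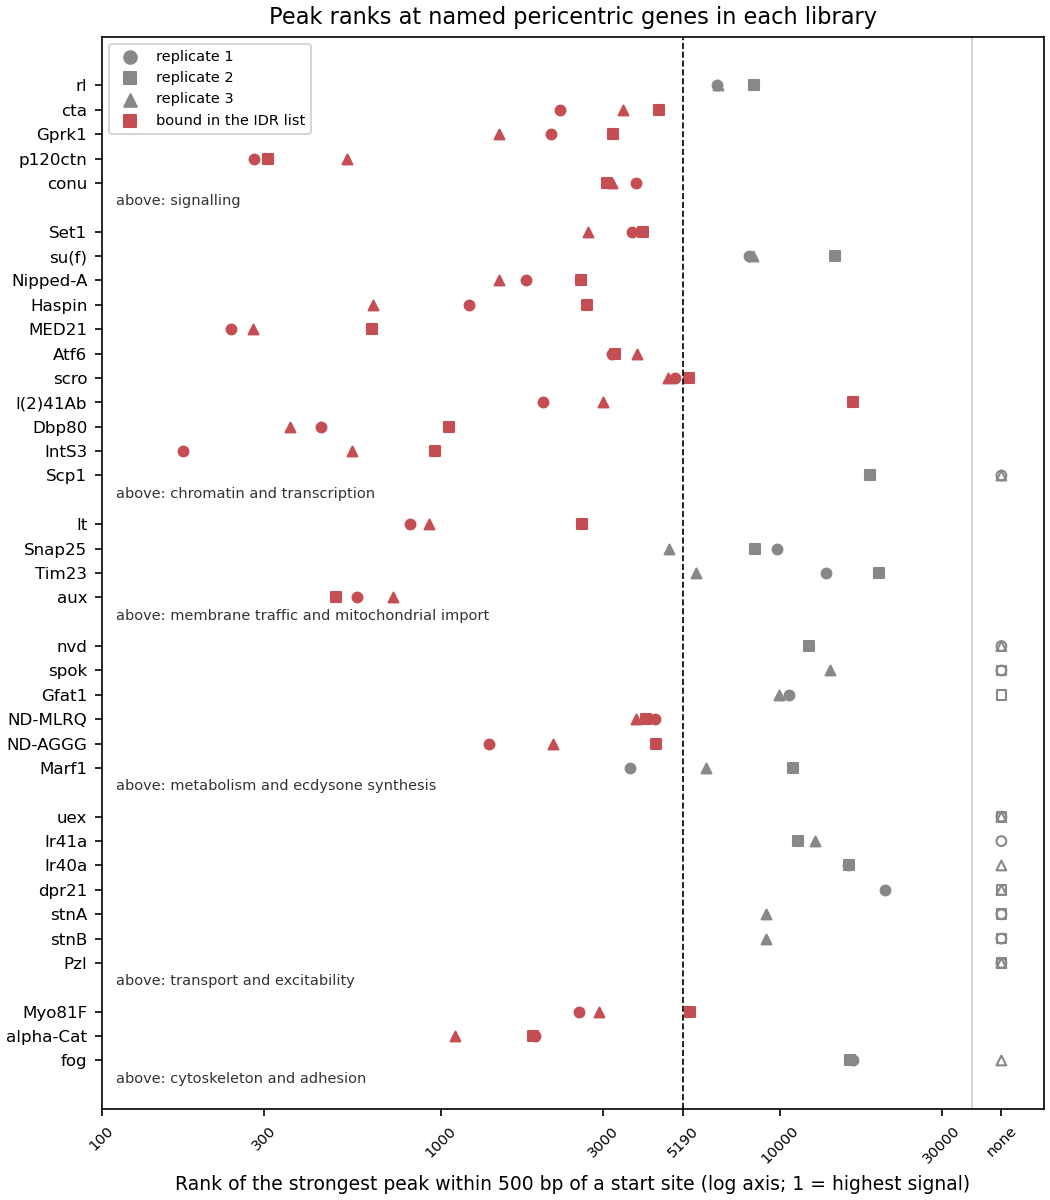
Rank of the strongest peak within 500 bp of a start site in the full list of each library, for pericentric genes grouped by role, on a log axis on which rank 1 is the highest signal; the dashed line is the last rank counted as bound, red marks genes bound in the IDR list, and open symbols at the right have no peak. The listed chromatin and signalling genes sit mostly left of the line, while all 7 listed genes of transport and excitability sit right of it or have no peak.

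The other genes among the 12 of highest signal were CG14464 (rank 212), CG40191 (223), CG9776 (335), RNASEK (510), beta-Man (518) and Yeti (534). RNASEK encodes ribonuclease kappa and beta-Man a lysosomal mannosidase. CG40191 and Yeti lie 4140 and 4050 kb inside the border of 2R, and CG40191 ranked 279, 358 and 162 in the libraries. Strength among bound genes was close to that elsewhere. The median rank of the nearest summit was 2200 for the 91 bound pericentric genes and 2325 for bound genes outside, and 11.0% against 11.1% stood in the first 519 peaks of the IDR list. Of bound pericentric genes 81.3% were bound in all 3 libraries, against 76.0% outside. The 3 genes bound in the IDR list but in only 1 library, in each case replicate 3, were Cp110, CG12576 and DhpD, with IDR ranks of 4768, 4768 and 4987. No gene was bound in all 3 libraries without being in the IDR list.

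The bound share differed widely between arms. On 2R 31 of 45 genes (68.9%) were bound, and replicates 1 to 3 gave 68.9%, 62.2% and 68.9%. On 3L 16 of 30 (53.3%) were bound, with 53.3%, 50% and 56.7%. On 3R the share was 35.8% (24 of 67), with 34.3%, 32.8% and 32.8%. It was 31.4% on 2L (11 of 35), with 34.3%, 25.7% and 31.4%. On X it was 15.3% (9 of 59), with 10.2%, 13.6% and 15.3%. In every library the order began with 2R and 3L and ended with X, whereas the values of 2L and 3R overlapped and were nearly equal in replicate 1. The 2R share exceeded the X share by 53.7 ± 5.03 points (SD, n = 3 libraries; two-sided exact sign-flip permutation test, p = 0.25). Both arms were picked as the highest and lowest in these data, so the direction was set by the choice and the test cannot bear on it. The X share includes 21 near-identical copies, described below, and was 23.7% in the IDR list without them.

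Each arm was then set against its own 2 Mb outside the border. Over the 5 arms together, 31.0% of 1031 such genes were bound, and the pericentric genes were 9.06, 3.03 and 8.07 points above them in replicates 1 to 3. Without 2R the difference was 0.959 points in the IDR list and 2.31, -2.88 and 1.6 points in the libraries, so its direction was not shared. With 2R kept and the near-identical copies left out, it was 12.5 points, with 13.9, 7.52 and 13.0 in the libraries. On 2R the excess was 33.3 ± 4.98 points and on 3L 20.3 ± 7.20 points (SD, n = 3 libraries each). On 2L it was 5.29 ± 3.30 points. The pericentric genes of X were bound 8.57 points less often than their neighbours outside, with library differences of -11.2, -8.50 and -6.07. On 3R the library differences were 3.59, -5.69 and -3.96 points, so their direction was not shared. These 5 differences were not adjusted for multiple comparisons, since no test over 3 libraries can fall below p = 0.25 (exact sign-flip permutation test).

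**Figure D2:**
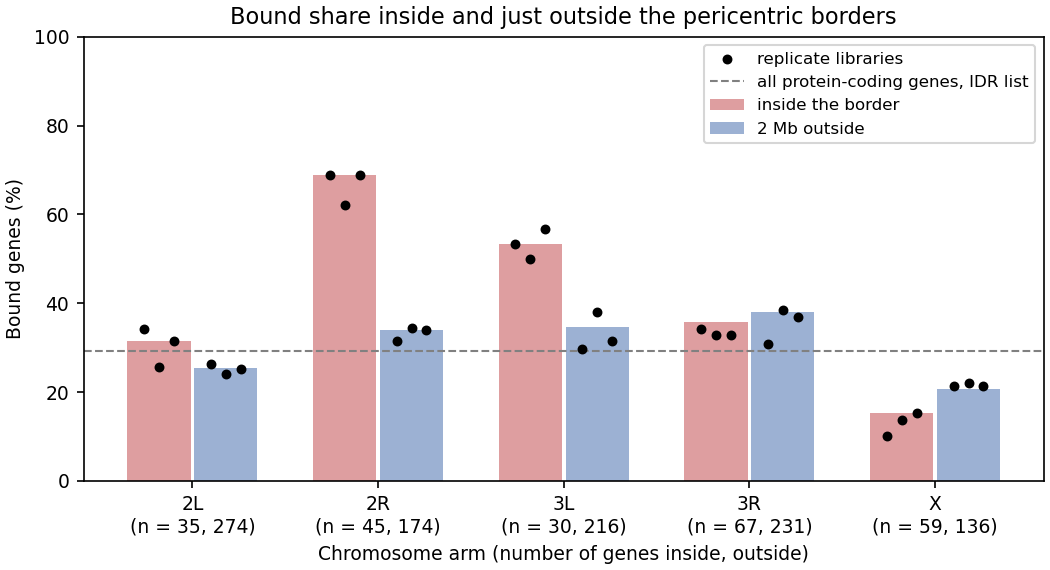
Percent of genes bound on each arm, inside the pericentric border (red) and in the 2 Mb outside it (blue); bars are the IDR list, points the 3 replicate libraries, and the dashed line is the 29.2% of all protein-coding genes. All points inside on 2R (62.2% to 68.9%) and 3L (50% to 56.7%) lie above those outside, and all points inside on X (10.2% to 15.3%) lie below.

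On X, 21 of the 59 genes were near-identical copies in a cluster from CG40813 to CG41562 (X 22143058 to 22252414). Their median length was 876 bp, a median of 4.85% of the 32-base words around their 5′ ends were unique, and none had even a relaxed peak. The part of the repeated sequence in this absence was not tested. Without them, 9 of 38 X genes (23.7%) were bound, with 15.8%, 21.1% and 23.7% in the libraries. Of all 236 genes, 44 had fewer than 90% unique words and 5 of those (11.4%) were bound, against 86 of the other 192 (44.8%). For genes outside the borders with at least 90% unique words, 30% were bound. The read length is not known, so uniqueness of 32-base words only describes the sequence.

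Within 2R the bound genes formed a near-continuous run next to the border. Of the 23 genes in the first 1 Mb, 19 (82.6%) were bound in the IDR list and the same number in each library, against 33.9% in the 2 Mb outside. The run began 36.9 kb inside the border with CG10417. COX4L, CG10395 and CG10465 followed, and then sxc, which encodes the O-GlcNAc transferase of the Polycomb group. After these came d4, Nipped-A, Atf6, gus and CG3107, at 141 to 309 kb. It resumed with CG14464, CG17528, CG12547 and conu, continued through CG17883, CG17486, p120ctn and Stlk, and reached Gprk1 at 929 kb. The unbound genes were IFT20, TpnC41C, Ir41a and CG44102, of which the last 3 are adjacent, at 330 to 492 kb. IFT20 acts in ciliary transport, TpnC41C encodes a muscle troponin C and Ir41a a chemoreceptor. This stretch was also rich in transposons, with a median of 46.1% within 10 kb against 28.5% over all 2R genes, and 1 of its 23 genes had a divergent neighbour. Just outside the border, stw was unbound in every library.

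The members nearest to the other borders were CG31693 on 2L (15.2 kb inside, unbound), CG40813 on X (143 kb, unbound), CkIIalpha on 3L (97.1 kb, bound in all 3 libraries) and CG32945 on 3R (21.4 kb, unbound). CkIIalpha is the catalytic subunit of casein kinase 2, and the gene just outside it on 3L, nrm, was unbound. The genes just outside on 2L and 3R, CG2528 and 5-HT2A, were unbound in every library, and DIP1 on X was bound in 1 library but not in the IDR list.

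Binding continued to the deepest genes of the assembly. Of the 29 genes over 2 Mb inside, 16 (55.2%) were bound in the IDR list, with 55.2%, 41.4% and 55.2% in replicates 1 to 3. The shares were 34.2% of 79 genes up to 0.25 Mb, 32.1% of 53 from 0.25 to 0.5 Mb, 47.5% of 40 from 0.5 to 1 Mb and 34.3% of 35 from 1 to 2 Mb. They followed no steady trend with depth. Within 1 Mb 36.6% were bound and deeper 43.8%, a difference of -8.87, -1.64 and -9.85 points in the libraries (mean -6.78 ± 4.49, SD, n = 3). Without near-identical copies the difference fell to -2.30 points, with -4.34, 3.04 and -5.28 in the libraries (two-sided exact sign-flip permutation test, p = 0.5), and its direction was no longer shared. Within 2R it had the opposite sign, with 82.6% bound within 1 Mb and 54.5% deeper and library differences of 28.1, 41.7 and 28.1 points. On 3R the shares were 36.5% and 25%, on 3L 50% and 55.6%, on 2L 30% and 40% and on X 13.6% and 20%, with 4 deeper genes on 3R and 5 on 2L. The genes over 2 Mb inside lie on 2R, 3L and, for Myo81F, on 3R. In the 0.5 Mb just outside the borders 24.5% of 188 genes were bound, and from 1 to 2 Mb outside 32.8% of 546.

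l(3)80Fj was the deepest bound gene, 5010 kb inside the border of 3L, at IDR rank 1154 and library ranks of 1761, 1416 and 744. Next came CG40498 on 2R at 4450 kb (rank 3528; libraries 4552, 2121 and 4327) and Dbp80 on 3L at 4280 kb. CG40228 at 4080 kb had nearly the same rank in each library (1944, 1930 and 1755), and the summit of CG40191 fell within 3 bp in the 3 libraries, at -105, -103 and -102 bp. The deepest unbound genes were all on 2R: DIP-lambda at 5070 kb, CG46302 at 4550 kb, rl at 4330 kb and CG41520 at 3750 kb. DIP-lambda encodes a cell-surface partner of Dpr proteins and had a relaxed peak in replicate 1 alone, at rank 13689. CG46302 had none, and 3.20% of its words were unique. Bound and unbound genes were thus interspersed at all depths.

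**Figure D3:**
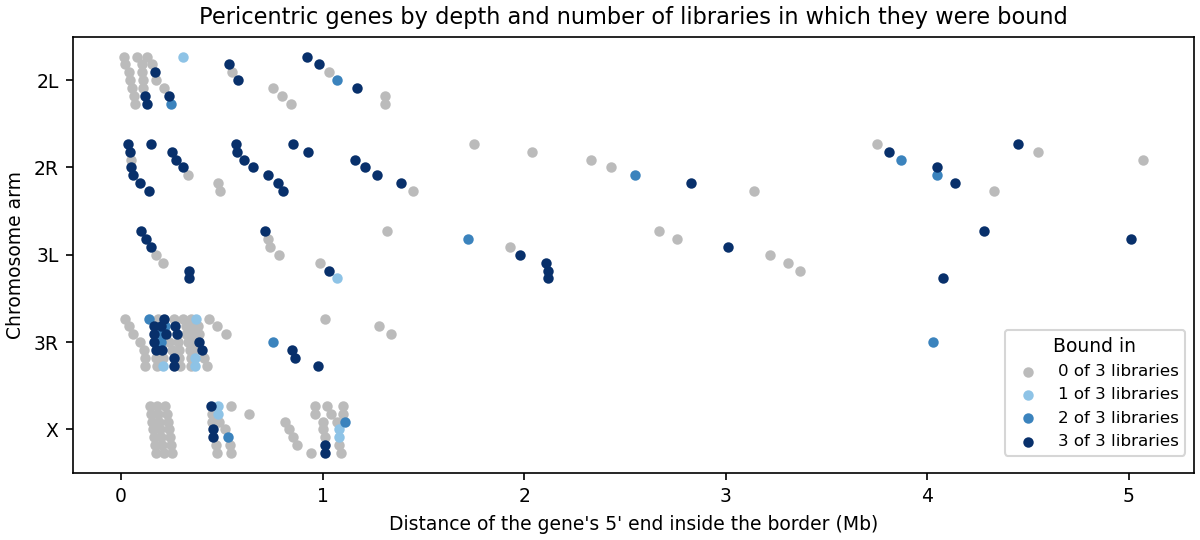
Distance of each pericentric gene's 5′ end inside the border of its arm (Mb), with 1 row per arm, vertical offsets only to separate points, and shades for the number of libraries in which the gene was bound. Dark points fill most of the first 1 Mb of 2R and recur to 5010 kb on 3L, while the dense grey group on X near 0.2 Mb holds the 21 near-identical copies.

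Bound pericentric genes were longer than unbound ones, with medians of 5.97 kb and 2.15 kb, a ratio of 2.79. The ratio was 2.33, 2.10 and 2.97 in replicates 1 to 3 (two-sided exact sign-flip permutation test, p = 0.25). Outside the borders the medians were 3.12 and 1.87 kb. Without the 27 near-identical copies, none of them bound, the median of unbound genes was 3.68 kb and the ratio 1.62. The library ratios were then 1.27, 0.999 and 1.77 (two-sided exact sign-flip permutation test, p = 0.5), so the direction was no longer shared. Among genes over 1 Mb inside, the ratio turned to 0.548. By length, the share was highest from 3 to 10 kb, where 33 of 51 genes (64.7%) were bound, against 39.5% of genes of that length outside. The libraries gave 56.9%, 58.8% and 62.7% inside and 35.1%, 42.6% and 39.6% outside, a difference of 20.4 ± 3.65 points. Genes up to 1 kb were bound in 2 of 40 cases (5%), against 12.1% outside. As 24 of these 40 were near-identical copies, 2 of 16 (12.5%) were bound without them. Over 30 kb 12 of 35 (34.3%) were bound, against 35.4% outside.

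The longest gene, Myo81F, spans 1970 kb on 3R (567076 to 2532932) and encodes a myosin. It ranked 3288 in the IDR list, with a summit at -225 bp, and was bound in replicates 1 and 3 at ranks 2560 and 2918. In replicate 2 its rank of 5419 fell just past the peaks counted. The next 5 by length, Pzl (709 kb), lovit (434 kb), CG17684 (396 kb), DIP-lambda (379 kb) and Snap25 (225 kb), were not in the IDR list. lovit encodes a vesicular transporter of histamine in photoreceptors. l(3)80Fg (216 kb) was bound in every list at IDR rank 1169, and so was Gprk1 (149 kb). Of the 15 genes over 100 kb, 4 were bound in the IDR list and 4, 3 and 5 in the libraries, close to the 29.2% of all genes.

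Most bound pericentric genes lacked a divergent neighbour at the 5′ end, which most bound genes elsewhere had. A gene was called divergent when a gene on the opposite strand had its 5′ end within 1000 bp upstream of the gene's own. Inner start sites were not used, although binding was counted at any start site. The pairs Cp110 with CG12576 and CG14647 with CG9853 therefore counted as lacking such a neighbour, although each pair shared a summit. The effect of this mismatch on the shares was not tested. Of the 91 bound pericentric genes 20.9% were divergent, against 61.5% of the 3985 bound genes outside, and the libraries gave 23.9%, 23.2% and 21.1% against 60.6%, 61.4% and 61.6%. Divergent genes made up 13.8% of unbound genes inside and 26.4% of unbound genes outside. They were scarcer inside as a whole, 39 of 236 (16.5%) against 36.6% of all genes outside. Of those 39, 19 (48.7%) were bound, a share that differed from the 48.8% outside by less than the spread between libraries. Of the 197 genes without a divergent neighbour, 72 (36.5%) were bound inside and 17.6% outside. In replicates 1 to 3 the shares were 34%, 32% and 36% inside against 16.4%, 19% and 17.5% outside, a difference of 16.4 ± 2.98 points (SD, n = 3; two-sided exact sign-flip permutation test, p = 0.25). Every library inside lay above every library outside.

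This difference was also arm-dependent. Without 2R, 27.7% of pericentric genes lacking a divergent neighbour were bound, against 17.7% outside, and the difference of 7.33 ± 2.71 points was positive in 3 of 3 libraries. Set against the 2 Mb outside on the same arm, it was 41.6 ± 3.89 points on 2R, 36.2 ± 6.48 on 3L, 8.67 ± 0.765 on 3R, 1.15 ± 3.16 on 2L and -7.21 ± 2.89 on X. On 2L it was thus smaller than its spread, and on X it had the opposite sign in 3 of 3 libraries. Of the 47 X genes in that comparison 21 were near-identical copies, and without them 19.2% were bound in the IDR list and 7.69%, 7.69% and 19.2% in replicates 1 to 3, against 13.6%, 13.6%, 12.6% and 14.6% outside. With windows of at least 90% unique words, 44.2% of such genes were bound inside and 18.2% outside.

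**Figure D4:**
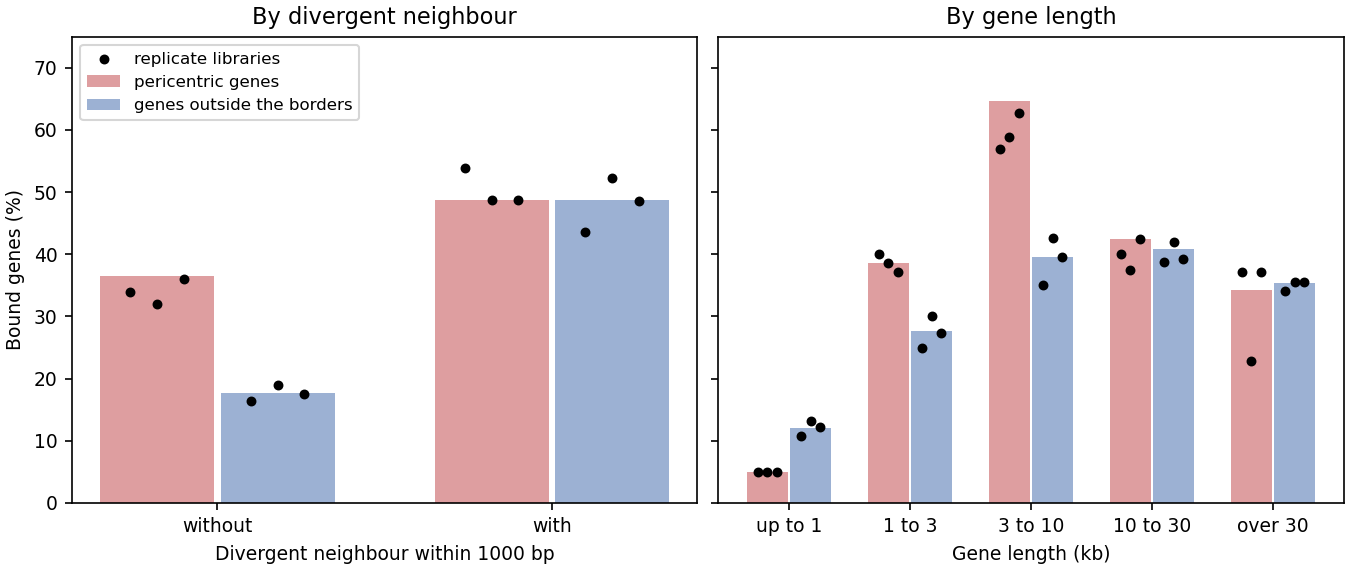
Percent of genes bound among pericentric genes (red) and genes outside the borders (blue), split by a divergent neighbour within 1000 bp (left) and by gene length in kb (right); bars are the IDR list and points the 3 replicate libraries. Without a divergent neighbour the red points (32% to 36%) lie above the blue ones (16.4% to 19%), and with one the points overlap; from 3 to 10 kb the red points lie above the blue ones.

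Of the 19 bound divergent genes, 11 had a protein-coding partner and 8 a gene of another kind, such as the noncoding RNA lncRNA:CR44809 beside Clamp. A total of 12 genes shared 6 summits in pairs, so these pairs are not independent. Rab21, a small GTPase of endosomes, and Coa7, a factor of respiratory complex assembly, began 86 bp apart on X and shared the summit of rank 1457. Skp2, the F-box protein of a ubiquitin ligase, and CG1103 began 81 bp apart on 3R and shared rank 2118. The others were wap with Usp2, Lipt2 with CG14650, Cp110 with CG12576 and CG14647 with CG9853, at ranks 2839, 3625, 4768 and 4924. The last pair began 1517 bp apart, and its summit lay between the start of CG14647 and an inner start site of CG9853.

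Summits sat close to and upstream of the start sites. The median position at the 91 bound genes was -61 bp (negative is upstream), with -63.5, -59.5 and -55.5 bp in replicates 1 to 3. Outside the borders it was -100 bp, with -108, -96 and -98 bp. The pericentric median lay 41.2 ± 4.16 bp nearer to the start site (SD, n = 3 libraries; two-sided exact sign-flip permutation test, p = 0.25). Within 100 bp of a start site lay 72 of the 91 summits (79.1%), against 48.1% outside. Among genes without a divergent neighbour the medians were -60 and -86 bp, and the libraries differed by 26.7 ± 4.51 bp, so the gap was smaller in this subset and of the same direction in 3 of 3 libraries. Upstream summits were 81 of 91 (89.0%), against 92.0% outside. For the 74 genes bound in all 3 libraries, the summit moved by a median of 42.5 bp between libraries, about as far as the 41 bp outside, so positions of single genes carry that uncertainty.

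**Figure D5:**
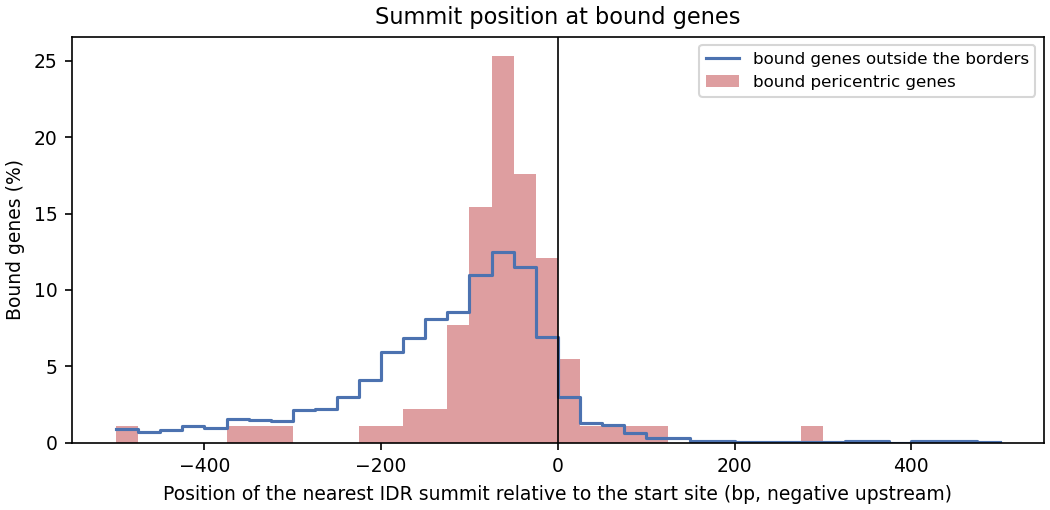
Distribution of the nearest IDR summit relative to the start site (bp, negative upstream; bins of 25 bp) at the 91 bound pericentric genes (bars) and the 3985 bound genes outside the borders (line), each as percent of its bound genes. The bars peak between -75 and -50 bp, and the line has a longer upstream tail.

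The repeat share near the start site differed between bound and unbound genes by less than the spread between libraries. The mean soft-masked share within 500 bp was 23.1% for bound and 22.1% for unbound pericentric genes, and the difference was 2.37, -0.310 and 0.775 points in replicates 1 to 3 (two-sided exact sign-flip permutation test, p = 0.5). Outside the borders the means were 15.5% and 13.5%. On a wider scale, 11 of 20 genes with at least 50% annotated transposon within 10 kb were bound (55%), 40 of 96 with 10 to 50% (41.7%) and 40 of 120 with less (33.3%). Without near-identical copies the last 2 shares were 43% and 41.7%, and outside the borders the 3 classes had 30.8%, 25.9% and 29.3%. The genes of the first 1 Mb of 2R are among the transposon-rich ones, and the part of the arm in this order was not tested. The annotated share also varied with depth, with a median of 15.2% for genes within 1 Mb of the border and 0.0% for deeper ones. Soft-masked bases within 500 bp had medians of 20.8% and 24.8%. The lowest class thus includes deep genes such as l(3)80Fj and Dbp80, and need not be poor in repeats.

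The unbound genes were not uniformly without signal. Of the 145, 65 had no relaxed peak within 500 bp of a start site in any library, 32 had one in all 3, and 7 were bound in 1 library. Counting relaxed peaks, 61.4%, 64.0% and 61.0% of the pericentric genes had one in replicates 1 to 3, against 42.6%, 54.5% and 45.2% of all genes. The nearest summits of pericentric genes were a minority of the peaks in these regions. Of the IDR peaks, 238 (4.59% of the list) lay inside the borders, and of these 85 (35.7%) were the nearest summit of a pericentric gene. Replicates 1 to 3 gave 82 of 320 (25.6%), 76 of 186 (40.9%) and 86 of 322 (26.7%). Peaks at left-out genes, and further summits at the 8 bound genes with more than 1, were not counted as such.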

How the data were processed

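The authors deposited peak lists in which each peak has a signal value, an enrichment relative to the control that ranks peaks within a list only and was used as such. How reads were aligned, how peaks were called, the IDR threshold and read numbers are not stated by the labels, so no counting interval can be given. Only lists on dm6 were used. Distances from peak start to summit, as deposited, gave summit positions.

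Gene models were from Ensembl release 115 (BDGP6.54) and sequence from RefSeq Release 6, the same assembly as dm6. Python 3.11.15, pandas 2.3.3 and numpy 2.4.6 were used. Each library entered through peaks of highest signal, as many as the IDR list holds. Soft-masked bases and unique 32-base words were counted within 500 bp of the 5′ end. A gene was called a near-identical copy when over 50% of its words occurred in another pericentric gene. This rule also took in flip (69.7%), whose start window was fully unique and of which 75.1% is annotated transposon. Libraries are the only replicates, so differences were recomputed in each and tested by exact sign-flip permutation over 3 libraries. The labels call them biological replicates. The check on simulated data covered only the bound call, with summits placed just upstream of 5′ ends, and the smallest sign-flip p. It did not cover false calls, bound shares or comparisons between gene sets.

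The members, role lists, words and tests were chosen with earlier results of these data known. Named genes are the 12 of highest signal, the 6 deepest bound and 4 deepest unbound, the 8 longest, the role lists, the genes beside each border, genes on which the lists disagreed and pairs sharing a summit. The genes of the first 1 Mb of 2R, those with word matches, Parp1, Dsk, Tim17b, Vps11, UQCR-11, BckdhB, MFS17, d4 and the counts of TATCGA by depth and arm were named or made after their values were seen. The listed name Parp matched no current symbol.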

Additional observations from a re-analysis of the deposited data

Results flagged for a closer look

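The difference in bound share between pericentric genes and the genes of the 2 Mb outside the border ran in opposite directions on different arms in all 3 libraries. It was 33.3 points on 2R, 20.3 points on 3L and 5.29 points on 2L, where each library showed a higher share inside, and -8.57 points on X, where each library showed a lower share inside. Between arms, only the bound shares of 2R and X were compared, which differed by 53.7 ± 5.03 points (two-sided exact sign-flip permutation test over 3 libraries, p = 0.25, the smallest possible). Both arms were picked as the highest and lowest in these data, so the direction was set by the choice and the test cannot bear on it. On X, 21 of the 59 genes are near-identical copies in which no peak was found. Without them 23.7% of the X genes were bound in the IDR list, against 20.6% in the 2 Mb outside. Replicates 1 to 3 gave 15.8%, 21.1% and 23.7% inside against 21.3%, 22.1% and 21.3% outside, so the direction was then not shared. The part of the copies in the difference between arms was not tested further.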

How the results depend on the processing

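Of 135 recomputed values, 107 kept their direction (differences and ratios) or moved by less than the spread between libraries (levels). Size was not always kept: without 2R the difference from other genes fell from 9.52 to 2.25 points and from flanking genes from 7.52 to 0.959. The bound share of 38.6% was 36% with a 200 bp window, 41.1% with 1000 bp, 23.3% with the stronger peaks alone (upper part of each list by signal), 29.7% with peaks shared by all 3 libraries and 30.5% to 33.5% without 1 replicate (peaks shared by the other 2, hence shorter lists). It was 45.2% with borders 0.5 Mb nearer to the centromere, 32.2% with borders 0.5 Mb farther away, 40.5% with the left-out genes, 36% with each summit given to 1 gene and 35.6% with the 5′ end as the only start site. In settings chosen after seeing the data it was 44.8% with at least 90% unique words, 31.4% without 2R, 43.5% without near-identical copies and 43.8% over 1 Mb inside.

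Borders farther out turned the difference from the flanking genes to -1.30 points. Borders nearer to the centromere turned the length ratio to 0.616 and the difference in divergent share from 7.09 to -1.27 points, and the length ratio over 1 Mb inside was 0.548. The repeat difference of 0.967 points became -0.150 with the stronger peaks, -0.573 to 1.59 without 1 replicate (negative without replicate 1), -0.161 with borders nearer, -0.00826 with the 5′ end alone, -0.893 without 2R and -0.570 over 1 Mb inside. The median position moved to -69.0 bp under 25% soft-masked bases and -65.0 bp over 1 Mb inside. The causes were not tested. No paired comparison of groups was possible because all libraries belong to 1 group. Differences between gene sets were taken within each library. Depth is unknown, so an unbound gene may lie below detection.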

Other observations

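Among the genes left out of the set, RpL5, RpL10, RpL15, RpL38, eIF3a, eIF4B, mRpS5, Nipped-B and vtd were bound in the IDR list, and RpL21 and AGO3 were not. RpL21 was bound in 2 libraries and AGO3, a Piwi-clade Argonaute of transposon silencing, in 0. Chromosome 4, an arm that is also largely heterochromatic and was not part of the set, had 42 of 80 protein-coding genes bound (52.5%), with 53.8%, 50% and 50% in replicates 1 to 3. Of all protein-coding genes, 29.2% were bound in the IDR list.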
